A study of Mus musculus with 38 samples.

Results

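The genes described are 6 of the 19 ADAMTS proteases in a count table of 35682 mouse genes: Adamts1, Adamts2, Adamts4, Adamts5, Adamts9 and Adamts15. They were chosen by symbol, each from the Ensembl identifier that carries it, and the rule itself used no measured value, although earlier results of these data were known when it was set. The counts came from 38 libraries of QuantSeq, a method that reads the 3′ ends of polyadenylated RNA. Each library held cells pooled from 2 hearts of male C57BL/6 mice aged 8 to 12 weeks.

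Mice of the Sham group received oral vehicle (DMSO in saline) each day for 6 weeks and then an open-chest operation with no occlusion. Control-AMI mice (labelled Control_IR) received the same vehicle, followed by 30 minutes of ligation of the left anterior descending artery and 2 hours of reperfusion. EMPA-Pre-AMI mice (labelled EMPA_IR) went through the same ischemia and reperfusion after 6 weeks of empagliflozin (EMPA), an inhibitor of the kidney glucose transporter SGLT2, at 10 mg/kg/day. No group analysed here joined EMPA with the sham operation. From the ischemic part of the heart, digested with collagenase, cardiomyocytes (CM) were pelleted, endothelial cells (EC) were sorted as CD45- CD31+, and fibroblasts (FB) as CD45- CD31- CD90+. CM had 4 libraries of Sham, 5 of Control-AMI and 4 of EMPA-Pre-AMI, EC had 4, 4 and 5 in that order, and FB had 4 of each.

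ADAMTS proteases are secreted zinc metalloproteinases with thrombospondin repeats that cut proteins of the extracellular matrix. Adamts1, Adamts4, Adamts5, Adamts9 and Adamts15 belong to the branch that cleaves versican and aggrecan, large proteoglycans that hold water and hyaluronan in the matrix. Adamts2 belongs to another branch and removes the amino-terminal propeptide of fibrillar procollagens, a step before collagen fibrils form. Adamts1 and Adamts4 are known as inducible genes in many tissues, and versican turnover by these enzymes shapes the developing heart valves and vessels.

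In the GRCm39 build Adamts1 lies on chromosome 16 from 85590579 to 85600009 and Adamts5 on the same chromosome from 85653061 to 85698716, both on the minus strand and 53052 bases apart. Adamts9 lies on chromosome 6 from 92749680 to 92920520 (minus strand), Adamts15 on chromosome 9 from 30810451 to 30833863 (minus), and Adamts2 on chromosome 11 from 50492787 to 50698400 (plus). Adamts4 lies on chromosome 1 from 171077986 to 171089841 (plus). Adamts9 overlaps 2 antisense RNAs of the table, A730049H05Rik and Gm15737. Whether counting used the strand is not given in the sources used here, so reads of Adamts9 may include some from these partners. The same limit applies to the other 5 genes wherever the opposite strand is transcribed.

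Promoter windows of 300 bases (250 before and 50 after the start) were taken from the RefSeq sequences of GRCm38.p6 for Adamts1, Adamts9 and Adamts2, the 3 of the 6 members that matched an entry there, and not for Adamts4, Adamts5 and Adamts15. They set 2 genes that rose in fibroblasts after ischemia-reperfusion, Adamts1 and Adamts9, beside 1 that did not pass the test there. The sequences run 5′ to 3′ on the strand of the gene, at chr16:85803064-85803363 (minus), chr6:92943485-92943784 (minus) and chr11:50601835-50602134 (plus). Capitals mark TATAAA, the TATA box, and TGACG, the core of the cyclic AMP response element, searched on both strands.
Adamts1: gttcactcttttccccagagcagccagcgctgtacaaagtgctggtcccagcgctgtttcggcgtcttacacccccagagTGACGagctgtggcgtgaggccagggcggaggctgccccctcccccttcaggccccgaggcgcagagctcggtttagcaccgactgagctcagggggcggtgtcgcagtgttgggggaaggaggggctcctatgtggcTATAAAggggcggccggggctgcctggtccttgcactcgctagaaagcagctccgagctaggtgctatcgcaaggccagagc
Adamts9: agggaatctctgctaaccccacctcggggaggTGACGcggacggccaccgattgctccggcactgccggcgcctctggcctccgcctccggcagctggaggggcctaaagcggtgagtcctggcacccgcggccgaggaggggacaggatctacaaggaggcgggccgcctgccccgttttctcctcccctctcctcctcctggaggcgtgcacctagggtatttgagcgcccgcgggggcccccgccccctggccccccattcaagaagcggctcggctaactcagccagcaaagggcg
Adamts2: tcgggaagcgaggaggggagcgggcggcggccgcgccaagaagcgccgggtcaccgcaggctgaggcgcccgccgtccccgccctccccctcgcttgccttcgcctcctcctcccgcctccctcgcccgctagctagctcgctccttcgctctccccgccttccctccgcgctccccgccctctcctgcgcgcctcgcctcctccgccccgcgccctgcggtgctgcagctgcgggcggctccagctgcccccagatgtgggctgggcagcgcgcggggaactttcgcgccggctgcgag
TATAAA stood 32 bases before the start of Adamts1 and in neither of the other windows, and 13.6% of 32851 promoters of the same length held it. TGACG stood in the windows of Adamts1 and Adamts9, beside 20.8% of all promoters. The AP-1 site TGANTCA, which 7.81% of promoters held, was in none of the 3 windows. GGGCGG, a GC box, occurred 3 times in Adamts1, 5 times in Adamts2 and 1 time in Adamts9, beside 35.7% of promoters with at least 1. The windows were 64.7%, 77.3% and 70.0% G and C for Adamts1, Adamts2 and Adamts9, against a median of 52.7% over all promoters. Each match is a description of letters, not a site of binding.

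Libraries held 1352514 to 4509284 counts. Each population was highest for its own markers: the summed level of 10 endothelial markers was 4731 to 9872 counts per 1e6 counts of the library (CPM) in EC libraries, 1138 to 2656 in CM and at most 604 in FB, and that of 10 cardiomyocyte markers was 44940 to 97360 in CM and at most 1060 elsewhere. Fibroblast markers were not confined to FB, nor endothelial markers to EC. Their sum in EC libraries was 2.71% to 7.24% of the FB Sham mean in Sham, 9.79% to 36.8% in Control-AMI and 2.41% to 4.79% in EMPA-Pre-AMI, and in CM libraries 3.10% to 29.9%. No fibroblast marker was at 0 in any EC or CM library. The highest EC values were in Control-AMI libraries 1 and 4 (36.8% and 20.7%), also the only EC libraries with an S number of 37 or above in the label, a number whose meaning is not stated. Results that rest on these libraries are given with and without them.

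In Sham hearts the 6 proteases divided between fibroblasts and endothelial cells. Adamts2, Adamts15, Adamts5 and Adamts4 were higher in FB, and Adamts9 and Adamts1 were higher in EC. Adamts15 did not reach the count filter within EC, so that it entered the fit over all libraries through the other populations, and its differences from EC are given as values only. The other 5 all differed between FB and EC in edgeR's quasi-likelihood test, 3 higher and 2 lower in FB, where 37.7% of all 12085 genes tested did (20.2% higher and 17.6% lower in FB), at a false discovery rate (FDR) under 0.05. The groups did not overlap for any of the 5, as for 35.5% of all genes. Levels in this comparison are CPM scaled over all 38 libraries. The methods give fewer mice than 38 separate pools of 2 hearts would need, so that libraries of different populations share hearts. The labels do not tie them, and every test between populations treats them as independent.

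**Figure D1:**
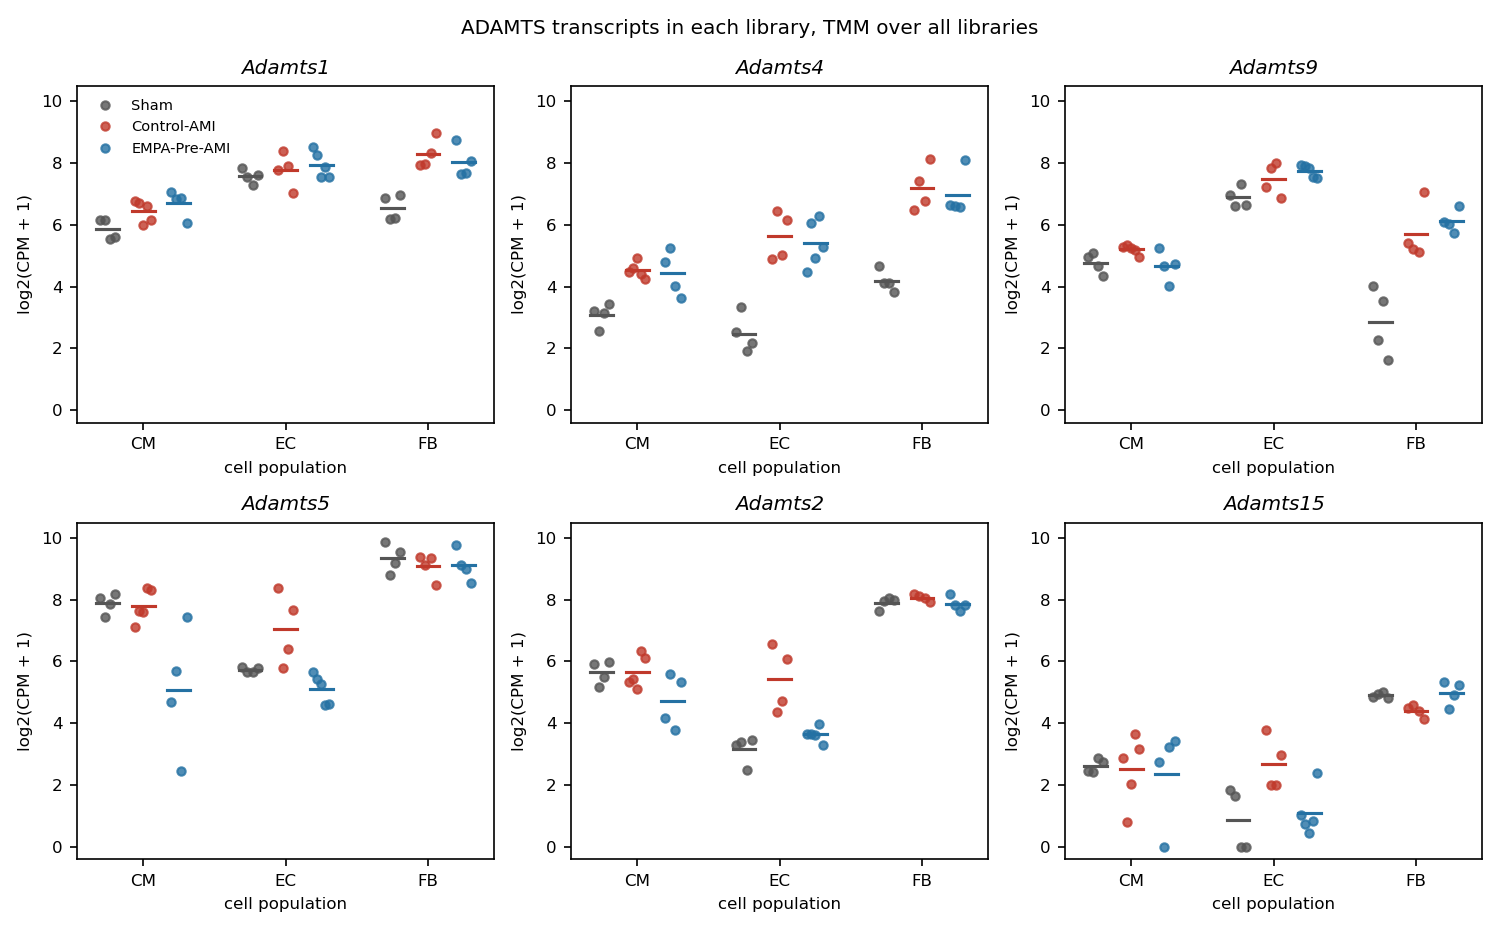
Level of each gene as log2(CPM + 1), scaled over all libraries, in cardiomyocytes (CM), endothelial cells (EC) and fibroblasts (FB). Points are libraries and bars are group means, and Adamts4 in FB rises from a Sham mean of 17.5 CPM to a mean of 163 in Control-AMI and of 140 in EMPA-Pre-AMI, while Adamts2 in FB stays between 198 and 292 CPM in all 12 libraries.

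Adamts9, which cleaves versican and is known from endothelium, had 126, 97.6, 158 and 99.9 CPM in the 4 EC Sham libraries and 15.3, 3.83, 10.6 and 2.08 in the 4 FB Sham libraries. All EC libraries lay above all FB libraries, and the FB level was lower by a log2 fold change of -3.92 (SE 0.422, FDR = 1.85e-09). Adamts1 had 157 to 229 CPM in EC Sham and 72.4 to 125 in FB Sham, with no overlap (log2 fold change -0.98, SE 0.281, FDR = 0.0046).

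Adamts2, the procollagen peptidase, had 199, 246, 263 and 250.8 CPM in FB Sham and 8.76, 9.45, 4.597 and 9.99 in EC Sham. The FB level was higher by 4.87 on the log2 scale (SE 0.397, FDR = 2.68e-12). Adamts15 had 27.5 to 31.3 CPM in FB Sham, while in EC Sham 2 libraries held 7 counts each and 2 held 0. Adamts5, an aggrecanase, had 446 to 937 CPM in FB Sham and 49.04 to 55.8 in EC Sham (log2 fold change 3.71, SE 0.589, FDR = 5.25e-06). The groups did not overlap for Adamts2, Adamts5 and Adamts4, as for 35.5% of all genes. Adamts4 was low in both, at 13.1 to 24.2 CPM in FB Sham and 2.76 to 9.15 in EC Sham (log2 fold change 1.77, SE 0.507, FDR = 0.00543).

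Against cardiomyocytes in Sham, 4 of the 6 genes were higher and 1 was lower in FB (22.7% and 24.5% of all genes, 47.3% in all), and of the 5 without Adamts15, 2 were higher and 2 lower in EC (24.8% and 28.1% of all genes, 52.9% in all). Adamts9 was again highest in EC, 2.16 above CM on the log2 scale (SE 0.394, FDR = 2.1e-05), and FB was below CM (log2 fold change -1.76, SE 0.430, FDR = 0.00102). Adamts1 was 1.70 higher in EC than in CM (FDR = 6.03e-06) and 0.72 higher in FB than in CM (FDR = 0.0388). Adamts2 and Adamts5 were ordered FB, CM, EC, with FB above CM by 2.25 and 1.51 on the log2 scale and EC against CM at log2 fold changes of -2.62 and -2.20. Adamts15 was 2.48 higher in FB than in CM. Adamts4 missed the threshold for FB against CM (log2 fold change 1.19, 95% CI 0.12 to 2.25, FDR = 0.0624), although it passed in DESeq2 (adjusted p = 0.0205), and for EC against CM (-0.58, 95% CI -1.79 to 0.63, FDR = 0.426). Some of these calls turned on single libraries. Adamts1 between FB and CM was lost without CM Sham library 3 or 4 (FDR = 0.11 and 0.107) or FB Sham library 1 or 4 (FDR = 0.0969 and 0.132). Adamts5 between FB and CM was lost without CM Sham library 2 or FB Sham library 1 (FDR = 0.0635 and 0.0591). The CM libraries held 46.6% to 66.01% mitochondrial counts, against 3.48% to 14.6% in EC and FB. In Sham CM libraries, fibroblast markers were 16.2% to 23.7% of the FB Sham mean, Adamts2 14.6% to 25.9% and Adamts15 15.0% to 21.5%. Adamts5, at 25.2% to 42.2%, stood above the marker share in each of these 4 libraries. Endothelial markers in the same libraries were 16.2% to 22.6% of the EC Sham mean, Adamts9 was 16.2% to 27.8% of its EC Sham mean and Adamts1 24.1% to 36.9%. The part of fibroblast or endothelial RNA in the CM levels was not tested. In bulk samples fewer cells of a type and less RNA per cell cannot be told apart.

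The next comparisons ask what ischemia-reperfusion changed within each population, and use CPM scaled within the population. In fibroblasts, Adamts4, Adamts9 and Adamts1 rose after AMI and Adamts2, Adamts5 and Adamts15 did not pass the test. Thus 3 of 6 genes were higher in Control-AMI than in Sham, where 2.99% of all 10691 genes were higher and 4.16% changed in either direction. EMPA-Pre-AMI exceeded Sham for the same 3 genes, a comparison that shares the Sham libraries (3.65% higher and 5.11% in either direction among all genes, and 11.8% without overlap).

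Adamts4, an aggrecanase, had 35.7, 24.2, 24.3 and 19.5 CPM in FB Sham. It had 130, 252, 158 and 410 CPM in Control-AMI and 145, 141, 138 and 397 in EMPA-Pre-AMI. Every library of both AMI groups lay above every Sham library. The log2 fold change was 3.19 for Control-AMI (SE 0.454, FDR = 0.00193) and 2.99 for EMPA-Pre-AMI (SE 0.452, FDR = 0.00253).

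Adamts9 started from a low level in fibroblasts, with 22.5, 5.72, 15.6 and 3.07 CPM in Sham. Control-AMI libraries had 60.6, 53.3, 49.9 and 192 CPM and EMPA-Pre-AMI libraries 100.2, 94.7, 76.9 and 142. Again no library of either AMI group reached down to the Sham range, and the log2 fold change was 2.92 for Control-AMI (SE 0.607, FDR = 0.0212) and 3.14 for EMPA-Pre-AMI (SE 0.611, FDR = 0.0141). The Control-AMI call was lost without FB Sham library 2 or 3 (FDR = 0.0659 and 0.051), with no filter on low counts (FDR = 0.0629), with only the 2 groups in the fit (FDR = 0.0535) and with a term for library number (FDR = 0.0531), at log2 fold changes of 2.70 to 3.19. Adamts9 was higher in EC than in FB or CM in Sham, so endothelial markers were set beside it. Their sum in FB libraries was 1.12% to 5.14% of the EC Sham mean in Sham, 1.74% to 6.11% in Control-AMI and 1.30% to 6.41% in EMPA-Pre-AMI. Adamts9 itself went from 1.73% to 12.7% of its EC Sham mean in Sham to 28.3% to 110% in Control-AMI and 43.7% to 80.8% in EMPA-Pre-AMI. The part of endothelial RNA in the FB levels of Adamts9 and Adamts1 was not tested.

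Adamts1, which cleaves versican and binds the matrix, had 169, 108, 109 and 184 CPM in FB Sham, 356, 363, 475 and 734 in Control-AMI and 628, 290, 301 and 391.9 in EMPA-Pre-AMI. The groups did not overlap, and the log2 fold change was 1.75 (SE 0.295, FDR = 0.00313) and 1.495 (SE 0.294, FDR = 0.00818). Control-AMI library 4 was highest for Adamts4, Adamts9 and Adamts1 and also held the most mural cell marker RNA, 4366 CPM (scaled over all libraries) against 649.5 to 2306 in the other FB libraries. The part of mural cells was not tested. Without that library the log2 fold changes in Control-AMI were 2.797 for Adamts4 (FDR = 0.00231), 2.22 for Adamts9 (FDR = 0.019) and 1.48 for Adamts1 (FDR = 0.00494). Across the 12 FB libraries the log2 levels of Adamts4 and Adamts9 had a Pearson correlation of 0.926, Adamts4 and Adamts1 of 0.875, and Adamts1 and Adamts9 of 0.820. These points share the group differences.

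The procollagen peptidase Adamts2 and the proteases Adamts5 and Adamts15 did not pass in the same libraries. Adamts2 had 292 to 386 CPM in FB Sham and 349 to 424 in Control-AMI (log2 fold change 0.14, 95% CI -0.20 to 0.48, FDR = 0.673). Adamts5 had 667 to 1380 CPM in Sham and 520 to 984 in Control-AMI (log2 fold change -0.30, 95% CI -0.88 to 0.29, FDR = 0.602). Adamts15 had 41.3, 44.4, 45.97 and 40.6 CPM in Sham and 31.4, 33.8, 29.1 and 23.9 in Control-AMI, with no overlap, but missed the threshold (log2 fold change -0.54, SE 0.213, FDR = 0.169). Without overlap were 12.3% of all genes in this comparison. In EMPA-Pre-AMI against Sham the log2 fold change was -0.035 for Adamts2 (95% CI -0.38 to 0.31), -0.25 for Adamts5 (95% CI -0.83 to 0.34) and 0.10 for Adamts15 (95% CI -0.34 to 0.55).

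The S number ranges were uneven over the FB groups. In Sham 3 of 4 libraries had numbers of 1 to 8, and in Control-AMI 3 of 4 had 37 or above, so that this label and the group largely coincide. With a term for the range, the log2 fold changes of Control-AMI against Sham were 3.41 for Adamts4 (FDR = 0.00239), 3.01 for Adamts9 (FDR = 0.0401) and 1.86 for Adamts1 (FDR = 0.000249), and Adamts5 passed at -0.64 (FDR = 0.0259).

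**Figure D2:**
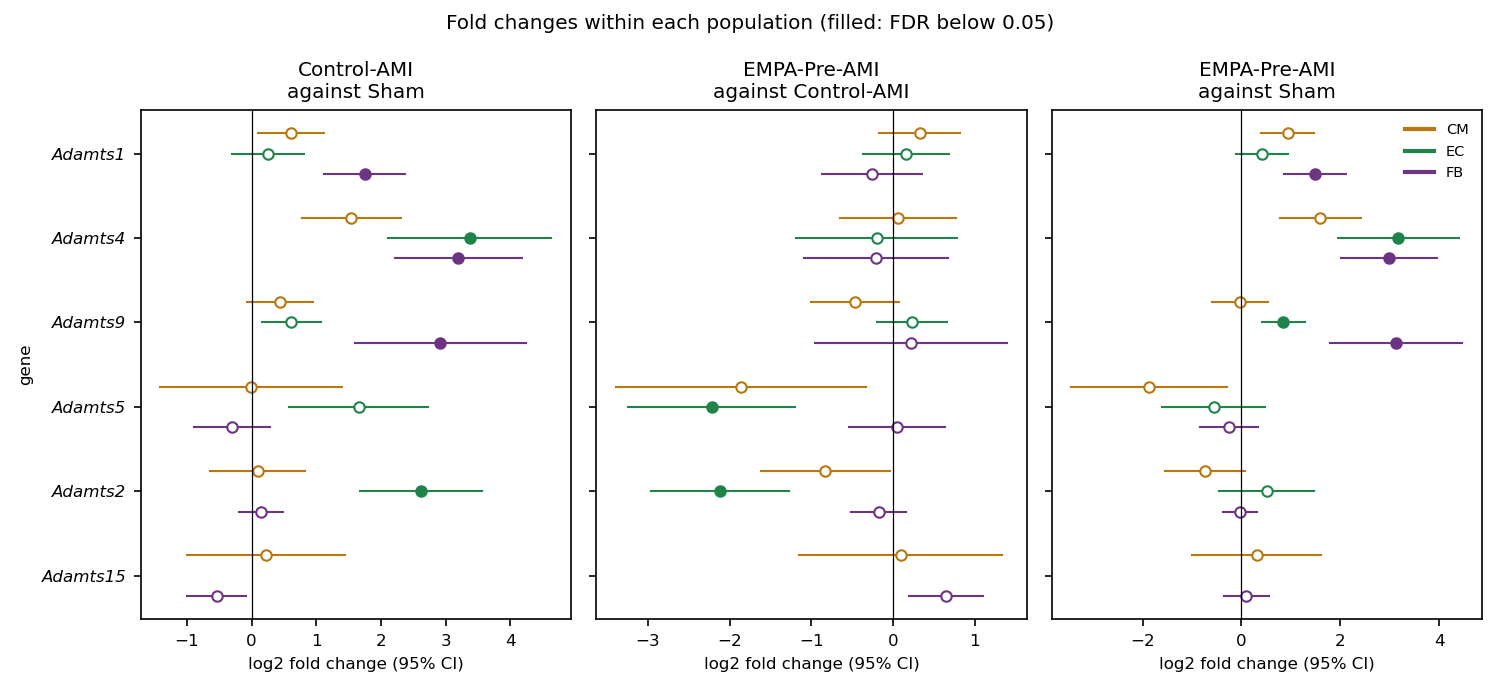
Log2 fold change with 95% CI for each gene in CM, EC and FB, from edgeR, with filled points where the FDR is below 0.05. In FB, Adamts1, Adamts4 and Adamts9 lie right of 0 in both comparisons with Sham, at 1.495 to 3.19, and in EC, Adamts2 and Adamts5 lie left of 0 for EMPA-Pre-AMI against Control-AMI, at -2.12 and -2.22.

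No difference between EMPA-Pre-AMI and Control-AMI passed the test for the 6 proteases in fibroblasts. Between EMPA-Pre-AMI and Control-AMI, 0 of 6 genes passed in edgeR's test and 0 in DESeq2, and 0 of all 10691 genes passed in edgeR (0%). At an unadjusted p under 0.05 there were 1 member and 170 genes in all (1.59%). The member was Adamts15, with 57.6, 31.1, 42.7 and 53.5 CPM in EMPA-Pre-AMI (log2 fold change 0.64, 95% CI 0.19 to 1.10, FDR = 1). For the 3 genes that rose after AMI the difference was -0.21 for Adamts4 (95% CI -1.09 to 0.67), 0.22 for Adamts9 (95% CI -0.95 to 1.39) and -0.26 for Adamts1 (95% CI -0.87 to 0.35). For Adamts2 it was -0.18 (95% CI -0.52 to 0.16) and for Adamts5 0.052 (95% CI -0.53 to 0.64).

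In endothelial cells, Adamts4 and Adamts2 were higher in Control-AMI than in Sham, 2 of the 5 genes tested, where 6.56% of 10438 genes differed and 4.09% were higher. Adamts15 was too low for the filter on low counts in EC and was not tested there. Adamts2 and Adamts5 were lower in EMPA-Pre-AMI than in Control-AMI, where 2.28% of all genes were lower and 2.63% differed. EMPA-Pre-AMI exceeded Sham for Adamts4 and Adamts9, where 2.08% were higher and 2.71% differed.

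Adamts4 had 7.67, 14.3, 4.38 and 5.55 CPM in EC Sham. Control-AMI libraries had 45.4, 136, 48.8 and 111 CPM, and EMPA-Pre-AMI libraries 33.9, 105, 46.9, 125 and 59.9. All 9 libraries of both AMI groups lay above all 4 Sham libraries. The log2 fold change was 3.38 (SE 0.577, FDR = 0.00515) for Control-AMI and 3.18 (SE 0.563, FDR = 0.00952) for EMPA-Pre-AMI. Between the 2 AMI groups it was -0.20 (95% CI -1.18 to 0.78, FDR = 0.931). Fibroblast markers in EC were at 2.71% to 7.24% of the FB Sham mean in Sham, 9.79% to 36.8% in Control-AMI and 2.41% to 4.79% in EMPA-Pre-AMI. Adamts4 also rose in FB after AMI, and the part of fibroblast RNA in its EC levels was not tested. Without Control-AMI libraries 1 and 4 the Control-AMI log2 fold change was 3.51 (FDR = 0.0249).

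Adamts2 had 14.2, 14.7, 7.30 and 15.96 CPM in EC Sham. In Control-AMI it had 146, 30.4, 39.4 and 103 CPM, with libraries 1 and 4 the highest, and in EMPA-Pre-AMI 18.3, 18.4, 18.1, 23.5 and 13.8. Control-AMI overlapped neither of the other groups, as for 11.3% of all genes against Sham and 4.21% against EMPA-Pre-AMI. The log2 fold change was 2.63 for Control-AMI against Sham (SE 0.442, FDR = 0.003) and -2.12 for EMPA-Pre-AMI against Control-AMI (SE 0.395, FDR = 0.0105), and 0.51 for EMPA-Pre-AMI against Sham (95% CI -0.45 to 1.46, FDR = 0.663).

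Adamts5 followed the same libraries. It had 90.3, 76.5, 77.9 and 87.5 CPM in EC Sham, 517, 85.8, 130 and 311 in Control-AMI and 78.6, 67.6, 59.4, 37.1 and 37.1 in EMPA-Pre-AMI. The difference of Control-AMI from Sham missed the threshold (log2 fold change 1.66, SE 0.490, FDR = 0.0733), although it passed in DESeq2 (adjusted p = 0.0128), and EMPA-Pre-AMI lay below Control-AMI with no overlap (log2 fold change -2.22, SE 0.466, FDR = 0.03). The latter call was lost without Control-AMI library 4 (FDR = 0.0878) and without EMPA-Pre-AMI library 1, 3, 4 or 5 (FDR = 0.0572, 0.0801, 0.0814 and 0.0836). The former passed without Control-AMI library 2 or 3 (FDR = 0.00944 and 0.0419). EMPA-Pre-AMI against Sham was at -0.56 (95% CI -1.60 to 0.48). Adamts15 had 20.0, 4.67, 4.68 and 10.6 CPM in Control-AMI against 0 to 4.13 in Sham, on 7 to 44 counts.

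Within EC Control-AMI, the fibroblast markers moved with these 3 genes. In Control-AMI libraries 1, 2, 3 and 4 the marker sum was 36.8%, 9.79%, 10.9% and 20.7% of the FB Sham mean. Expressed in the same way, Adamts2 was at 38.95%, 8.08%, 10.6% and 27.6%. Adamts5 was at 48.6%, 8.03%, 12.2% and 29.4%, and Adamts15 at 43.9%, 10.2%, 10.3% and 23.4%. Each gene was highest in the library with the most fibroblast marker RNA and next highest in the second. The part of fibroblast RNA in the EC levels of Adamts2, Adamts5 and Adamts15 was not tested. Endothelial markers, scaled over all libraries, summed to 9069 to 9872 CPM in EC Sham, 4731 to 6441 in Control-AMI and 6507 to 9308 in EMPA-Pre-AMI. Leukocyte markers summed to 2.76 to 21.5, 22.1 to 418 and 9.51 to 84.8 CPM in the same order, and their part was not tested.

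Leaving out Control-AMI libraries 1 and 4, a choice made after the data were seen, left Adamts2 higher in Control-AMI than in Sham (log2 fold change 1.44, FDR = 0.0255). The differences between EMPA-Pre-AMI and Control-AMI became -0.94 for Adamts2 (FDR = 0.382) and -0.96 for Adamts5 (FDR = 0.133). In that fit 0 genes of the 6 passed, and 0.347% of all genes did, against 2.63% with all libraries. The loss of calls was thus not particular to these genes. A term for the S number range gave -0.95 and -0.81 (FDR = 0.405 for both). That range of 37 and above held 2 Control-AMI libraries and no other EC library, so it and the group cannot be told apart for them.

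**Figure D3:**
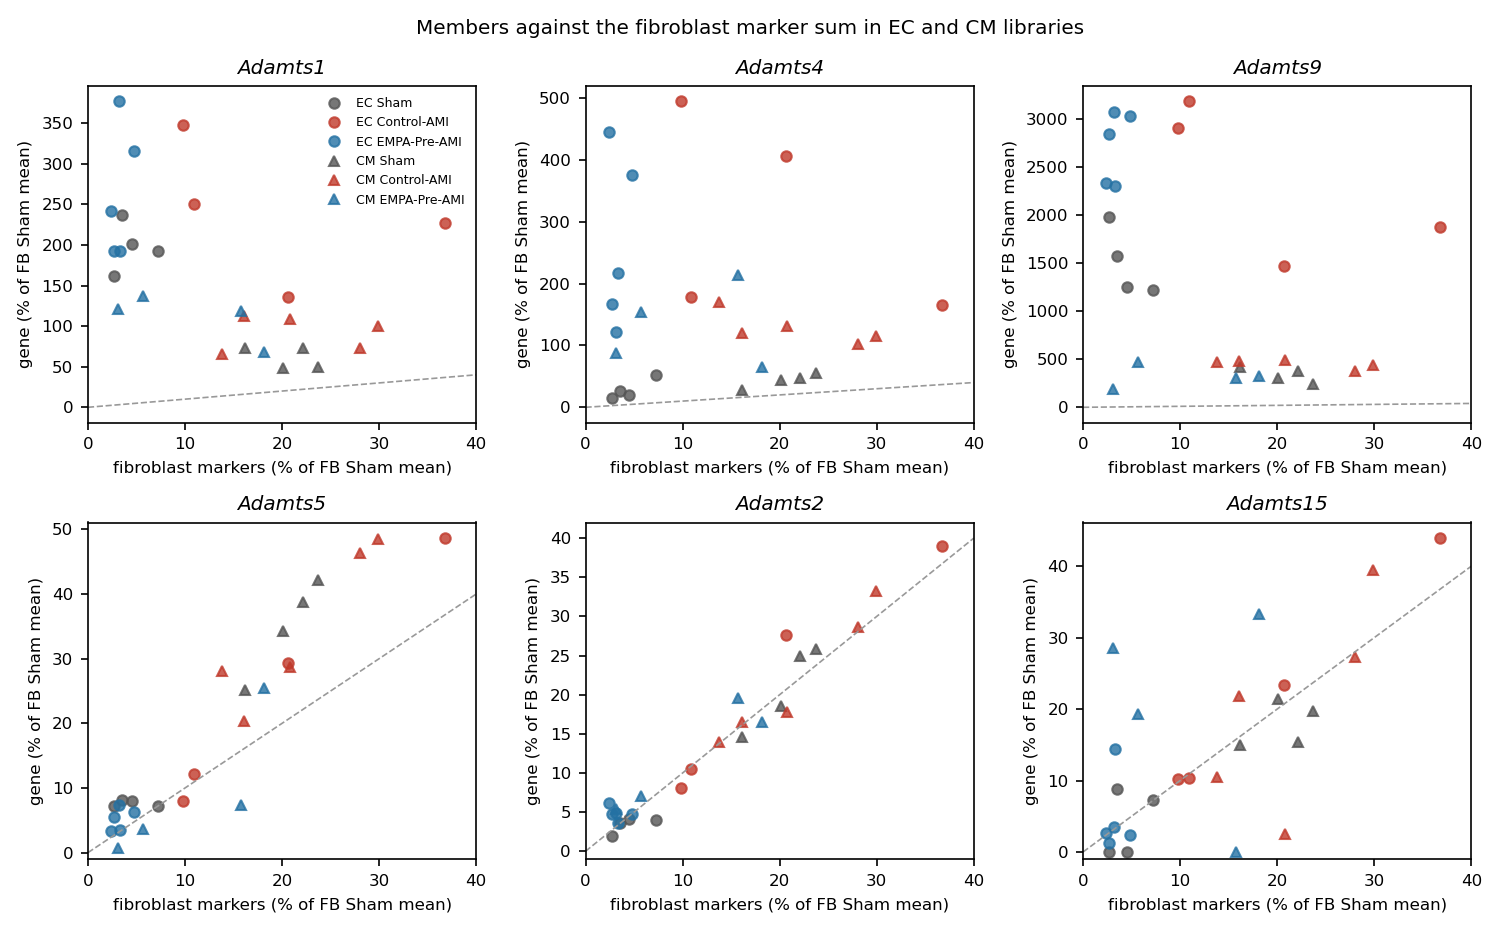
Level of each gene in EC (circles) and CM (triangles) libraries against the summed level of 10 fibroblast markers, both as percent of the FB Sham mean, with the dashed line where they are equal. Adamts2 lies near the line from 1.92% to 38.95%, whereas Adamts9 in EC lies between 1226% and 3187%.

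Adamts9 and Adamts1 were the members higher in EC than in FB or CM in Sham, and of these Adamts9 passed 1 of the 3 tests within EC and Adamts1 none. Adamts9 had 203, 152, 250.6 and 159.6 CPM in EC Sham, 234, 362, 396 and 182 in Control-AMI and 388, 384, 362, 298 and 288 in EMPA-Pre-AMI. Of the AMI groups, EMPA-Pre-AMI lay wholly above Sham, without overlap like 6.56% of all genes (log2 fold change 0.85, SE 0.208, FDR = 0.0291). That call was lost without EC Sham library 1, 2 or 4 (FDR = 0.0565, 0.126 and 0.135) and without EMPA-Pre-AMI library 1, 2 or 3 (FDR = 0.0769, 0.0727 and 0.0537). Control-AMI against Sham missed the threshold (log2 fold change 0.61, SE 0.217, FDR = 0.103) but passed without Control-AMI library 4 (0.78, FDR = 0.0256) and without libraries 1 and 4 (0.99, FDR = 0.00689). Between the 2 AMI groups the difference was 0.23 (95% CI -0.20 to 0.66). Adamts1 had 249 to 370 CPM in Sham, 204 to 525.8 in Control-AMI and 292 to 575 in EMPA-Pre-AMI, ranges that overlap throughout (Control-AMI log2 fold change 0.25, 95% CI -0.31 to 0.81, FDR = 0.661). EMPA-Pre-AMI was at 0.41 against Sham (95% CI -0.12 to 0.94) and at 0.16 against Control-AMI (95% CI -0.37 to 0.69).

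Tests of the difference between populations gave the response to AMI as unequal in EC and FB for 3 of the 5 genes that passed the filter within both, where 3.22% of all genes differed. The log2 fold changes of Adamts1 and Adamts9 were smaller in EC (difference of log2 fold changes -1.495, FDR = 0.0249, and -2.29, FDR = 0.0114), and that of Adamts2 was larger (2.49, FDR = 0.00318). For Adamts4 the difference was 0.19 (95% CI -1.09 to 1.47, FDR = 0.968) and for Adamts5 1.97 (95% CI 0.42 to 3.51, FDR = 0.196). Without EC Control-AMI libraries 1 and 4 no difference passed (FDR from 0.147 to 0.264 for the 3 genes), the direction of each being kept. The Adamts1 difference was also lost without EC Sham library 1, EC Control-AMI library 1 or 4, FB Sham library 2 or 3, or FB Control-AMI library 4 (FDR = 0.0575 to 0.0804).

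Against CM, the response of Adamts2 to AMI was larger in EC (difference 2.58, FDR = 0.00374, where 1.51% of all genes differed) and that of Adamts9 larger in FB (2.51, FDR = 0.0379, where 0.331% did). The difference between EMPA-Pre-AMI and Control-AMI was unequal in EC and FB for Adamts2 (-1.96, FDR = 0.0125), where 2.04% of all genes differed, and was at -2.29 for Adamts5 (95% CI -3.80 to -0.79, FDR = 0.134). Without EC Control-AMI libraries 1 and 4, the Adamts2 difference between EC and CM was 1.37 (FDR = 0.393) and that between EC and FB under EMPA was -0.75, neither of which passed. The Adamts9 difference between FB and CM was lost when any 1 of 12 libraries was left out.

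In cardiomyocytes 0 of the 6 genes passed in any of the 3 comparisons, tested over 9167 genes in edgeR. Of all genes, 0.0655% passed for Control-AMI compared with Sham, 0.338% for EMPA-Pre-AMI compared with Sham and 0.0218% between both AMI groups. At an unadjusted p under 0.05 in edgeR there were 2, 3 and 2 of the 6 in that order, beside 2.72%, 18.2% and 25% of all genes. DESeq2 called 1, 2 and 0 of the 6. The share of all genes that DESeq2 called is not given here, so these counts have no background beside them. Adamts4 had 3.66, 2.19, 3.42 and 4.32 CPM in CM Sham, on 9 to 17 counts. It had 9.06, 10.49, 12.8, 9.33 and 8.07 CPM in Control-AMI and 12.3, 19.4, 6.79 and 4.93 in EMPA-Pre-AMI. Neither AMI group overlapped Sham, as for 2.47% and 7.88% of all genes. The log2 fold change was 1.54 for Control-AMI (SE 0.366, FDR = 0.229) and 1.60 for EMPA-Pre-AMI (SE 0.390, FDR = 0.0864). Control-AMI passed in DESeq2 (adjusted p = 0.0331), with a term for the S number range (FDR = 0.0133) and with only the 2 groups in the fit (FDR = 0.0101). EMPA-Pre-AMI passed in DESeq2 (adjusted p = 0.0119), with no filter (FDR = 0.0298) and without EMPA-Pre-AMI library 4 (FDR = 0.00531).

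Adamts5 in CM had 116, 76.2, 102 and 127 CPM in Sham and 59.5, 88.7, 82.4, 153 and 141 in Control-AMI. The EMPA-Pre-AMI libraries had 11.3, 26.0, 1.98 and 75.7 CPM, all below Sham, with library 4 the highest. The log2 fold change against Control-AMI was -1.86 (SE 0.698, FDR = 0.135), and without EMPA-Pre-AMI library 4 it was -3.14 (FDR = 0.00543). Fibroblast markers in the 4 EMPA-Pre-AMI libraries were 5.68%, 15.8%, 3.10% and 18.2% of the FB Sham mean, against 13.8% to 29.9% in Control-AMI. Adamts5 stood at 3.64%, 7.39%, 0.659% and 25.5% on that scale, so that library 4 was highest and library 3 lowest in both. The part of fibroblast RNA was not tested. The first 3 libraries also had S numbers below 37 and all other CM libraries 37 or above, so that this label and the group cannot be told apart for them. With a term for the range, the difference rested on EMPA-Pre-AMI library 4 alone, at -0.47. Adamts1 in CM had 20.2 to 31.1 CPM in Sham, 27.3 to 47.4 in Control-AMI and 28.5 to 60.2 in EMPA-Pre-AMI (EMPA-Pre-AMI against Sham, log2 fold change 0.94, SE 0.256, FDR = 0.109), and passed without EMPA-Pre-AMI library 4 (1.13, FDR = 0.00702).

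Adamts2 in CM had 15.5 to 27.5 CPM in Sham, 14.4 to 37 in Control-AMI and 7.72, 24.2, 5.66 and 17.2 in EMPA-Pre-AMI. The log2 fold change was 0.093 for Control-AMI against Sham (95% CI -0.64 to 0.82) and -0.83 for EMPA-Pre-AMI against Control-AMI (95% CI -1.62 to -0.042, FDR = 0.179). EMPA-Pre-AMI libraries 1 and 3, the lowest for Adamts2, were also the lowest for fibroblast markers. Adamts9 had 8.64 to 14.8, 13.6 to 17.9 and 6.79 to 17.0 CPM in the 3 groups in that order, with log2 fold changes of 0.44 after AMI (95% CI -0.077 to 0.96) and -0.46 under EMPA (95% CI -1.003 to 0.075). Adamts15, on 0 to 16 counts, was at 0.22 (95% CI -1.004 to 1.44) and 0.092 (95% CI -1.15 to 1.33) in the same comparisons.

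Around the proteases, 56 genes were followed in 7 lists: substrates, cofactors of aggrecanases, inhibitors and clearance, maturation and modification, hyaluronan and versican matrix, ADAMTS-like proteins, and the other 13 ADAMTS proteases. Of the other ADAMTS proteases 6 were tested in FB, 6 in EC and 2 in CM, and the smallest FDR within a population was 0.109 (Adamts10 in CM, EMPA-Pre-AMI against Control-AMI, log2 fold change -1.42). Adamts10 is named here after its values were seen.

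In Sham, 10 of 13 substrates tested were higher in FB than in EC and 0 lower (20.2% of all genes were higher, and the median log2 fold change was 3.27, beside 0.04 over all genes). The substrate list shares 4 genes, Col1a1, Col1a2, Col3a1 and Dcn, with the fibroblast markers. In fibroblasts 4 of 40 related genes tested were higher in Control-AMI than in Sham and 0 lower, where 2.99% of all genes were higher. Vcan, which encodes versican, had a mean of 411 ± 39.6 CPM in Sham and 864 ± 51.2 in Control-AMI (SD, n = 4 each, log2 fold change 1.07, SE 0.142, FDR = 0.000357). Sdc4, the cell-surface proteoglycan syndecan-4 from the substrate list, rose by a log2 fold change of 2.28 (FDR = 0.00134). Has1, a hyaluronan synthase, rose from 2.01 ± 1.35 to 23.1 ± 11.9 CPM (SD, n = 4 each, FDR = 0.0048). Timp3, the inhibitor of Adamts4 and Adamts5, rose by 0.82 on the log2 scale (FDR = 0.00929). The same 4 genes, and no other, passed in EMPA-Pre-AMI against Sham, at 1.23, 2.50, 3.86 and 0.94. Substrates and inhibitors thus held 2 and 1 of 11 and 5 genes tested, with medians of 0.28 and 0.82 on the log2 scale, beside -0.03 over all genes.

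In endothelial cells 14 of 38 related genes tested were higher in Control-AMI than in Sham and 0 lower, where 4.09% of all genes were higher, and 8 of the 14 were among 12 substrates (median log2 fold change 1.76, beside -0.015 over all genes). The 6 with the smallest FDR were Vcan (3.23), the clearance receptor gene Lrp1 (2.84), Timp1 (3.35, from 1.00 ± 0.909 CPM in Sham, SD, n = 4), Col1a2 (2.32), Fbln1 (2.77) and Nid1 (0.97), all with an FDR of 0.000859 to 0.0107. In EMPA-Pre-AMI against Control-AMI 11 were lower and 0 higher, where 2.28% of all genes were lower, led by Lrp1 (-3.08), Vcan (-2.64), Col1a2 (-2.79), Fbln1 (-3.12), Col3a1 (-3.27) and Dcn (-2.39), with an FDR of 0.0031 to 0.0113. The 4 substrates shared with the fibroblast markers were among the 14 and among the 11. Without EC Control-AMI libraries 1 and 4, 40 related genes were tested. Of these, 7 were higher in Control-AMI and 6 lower in EMPA-Pre-AMI, where 2.12% and 0.347% of all genes passed. Vcan had 2.797 and -2.22 (FDR = 0.00442 and 0.0291). These sets are not parts of the 14 and the 11. The 7 included Has1 (FDR = 0.0263), not tested in EC with all libraries. The 6 included Sdc4 (FDR = 0.0144), which had missed the threshold with all libraries (FDR = 0.212). In EMPA-Pre-AMI against Sham, Timp3 alone of the 38 passed (log2 fold change 0.69, FDR = 0.0222).

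**Figure D4:**
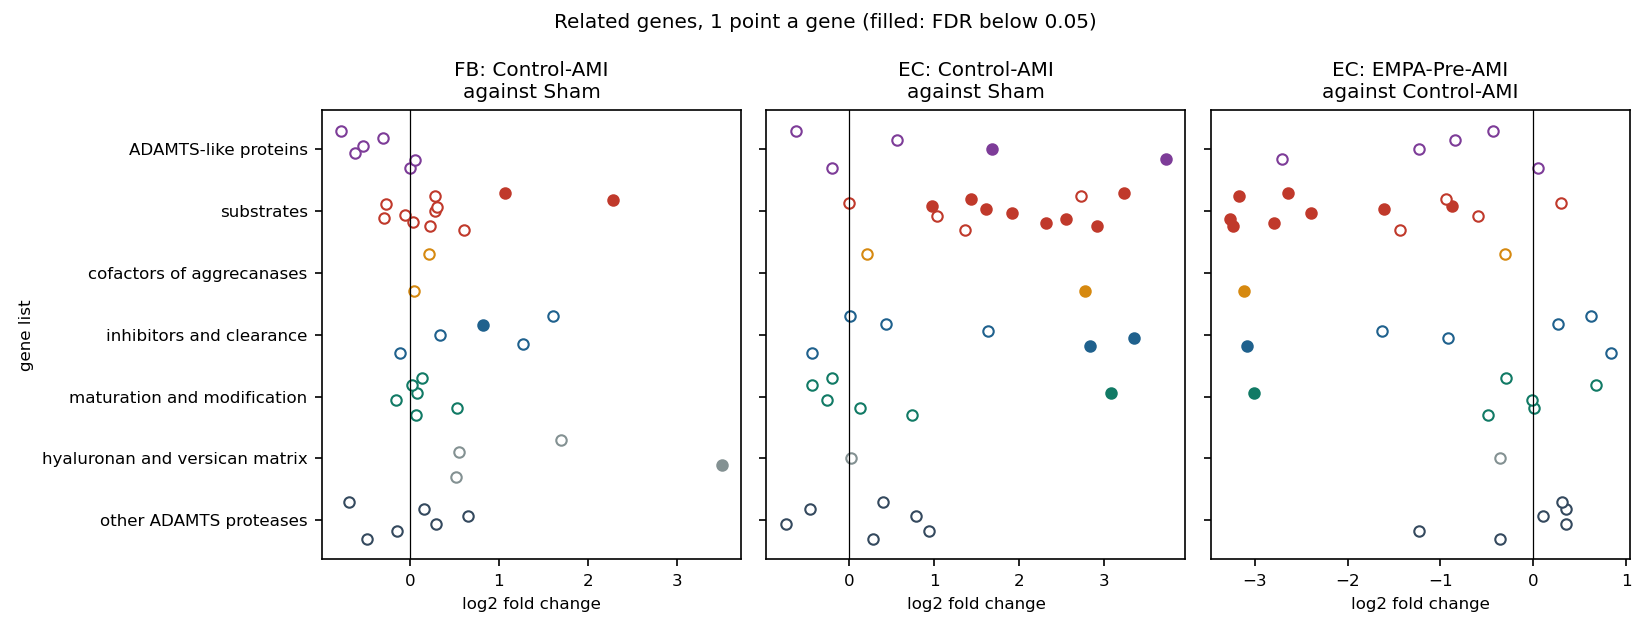
Log2 fold change of each tested gene of the 7 related lists in FB and EC, 1 point a gene, filled where the FDR is below 0.05. In FB 4 points are filled, all right of 0, in EC 14 right of 0 for Control-AMI against Sham and 11 left of 0 for EMPA-Pre-AMI against Control-AMI.

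The genes most like each member were listed by Pearson correlation of log2 CPM over the 38 libraries, which share the population differences. Adamts4 was most like Il6 (0.931), the cytokine interleukin-6, then Sphk1 (0.918) and Fosl2 (0.905), and over the 12 FB libraries most like Ptx3 (0.993). Adamts1 was most like Nfkbiz (0.898), H3f3b (0.887) and Bzw1 (0.881), and in FB 4930523C07Rik (0.966), Tiparp (0.948) and Ilf2 (0.941). Adamts9 was most like Apold1 (0.905), Gcnt2 (0.904) and Ednrb (0.904), and over the 13 EC libraries Tpp2 (0.925). Adamts2 was most like C1ra (0.983), Pcolce (0.981), which encodes an enhancer of procollagen processing, and Dcn (0.978). Adamts5 was most like Ebf2 (0.972), Clmp (0.970) and Naalad2 (0.964), and Adamts15 like Rab34 (0.922), Col16a1 (0.919) and Msc (0.913).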

How the data were processed

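Estimated counts per gene were deposited by the authors, who trimmed reads with cutadapt 2.8 and quantified them with Salmon against GRCm39 and Ensembl 106. The version of Salmon is not given in the sources used here. Expected counts (4.55% of values not whole) were rounded. Gene symbols came from the GENCODE M39 annotation of GRCm39, which named 35407 of 35682 genes. Each population was fitted alone with its 3 groups in edgeR 4.0.16 (R 4.3.3, limma 3.58.1): filterByExpr with a minimum count of 10, TMM factors, robust quasi-likelihood test and Benjamini-Hochberg FDR under 0.05. All 38 libraries were fitted together for Sham contrasts between populations and for differences of responses. CPM are counts per 1e6 of the library total times the TMM factor. Correlations used log2 CPM with a prior count of 2. Libraries held 2031716 to 4509284 (CM), 1352514 to 2195308 (EC) and 1946056 to 2821373 (FB) counts, so 3 counts are 0.728 to 1.82, 1.36 to 2.08 and 1.03 to 1.58 CPM scaled within the population. This limit covers counting error only. The methods describe libraries of a population and group as independent pools of 2 hearts, so p-values measure the spread between pools. Populations share hearts that the labels do not tie, and tests between populations treat them as independent. Alternatives were DESeq2 1.42.0, RLE factors, other filters, non-robust estimation, blocks, label terms, 2-group fits and leaving out libraries. The 6 members and all gene lists were chosen with earlier results of these data known. The members are named in each population. Of related genes, those past the FDR are named, at most 6 per comparison by smallest FDR, and for likeness up to 3 genes of highest correlation.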

Additional observations from a re-analysis of the deposited data

Results flagged for a closer look

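In 54 combinations of gene, population and group with 4 or 5 libraries, 3 had 1 library apart from the rest by Dixon's test, where chance gives about 1 in 20. Adamts4 in FB EMPA-Pre-AMI library 4 had 397 CPM, against 138 to 145 in the other 3. Adamts9 in FB Control-AMI library 4 had 192 CPM, against 49.9 to 60.6. Adamts15 in EC EMPA-Pre-AMI library 5 had 6.58 CPM (11 counts), against 0.566 to 1.61. The first 2 libraries also held the highest mural marker sums of the FB libraries (2306 and 4366 CPM, scaled over all libraries). The calls for Adamts4 and Adamts9 against Sham remained without these libraries, with a log2 fold change of 2.45 for Adamts4 in EMPA-Pre-AMI (FDR = 0.00126) and 2.22 for Adamts9 in Control-AMI (FDR = 0.019).

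Responses that differed between populations by an interaction test in edgeR were also singled out, with the values as differences of log2 fold changes. For Control-AMI against Sham, EC minus FB, these were Adamts1 (-1.50), Adamts2 (2.49) and Adamts9 (-2.29). Adamts15, below the count filter within EC, was left out. Adamts2 also differed between EC and CM (2.58, FDR = 0.00374), where 1.51% of all genes did, and Adamts9 between FB and CM (2.51, FDR = 0.0379), where 0.331% did. The last was lost in 12 of 38 fits that left out 1 library, at an FDR of up to 0.108. That contrast used the Sham and Control-AMI libraries of CM (4 and 5) and FB (4 and 4), and all 12 losses came from them. Fits that left out EC or EMPA-Pre-AMI libraries, which lay outside it, are also among the 38. The 12 libraries were CM Sham 1 to 4, CM Control-AMI 2 to 5, FB Sham 2 to 4 and FB Control-AMI 4, and the log2 difference was 1.80 to 2.67 without them. For EMPA-Pre-AMI against Control-AMI, EC minus FB, Adamts2 differed (-1.96, FDR = 0.0125), where 2.04% of all genes did. Adamts2 was lost without EC Control-AMI library 1 (-1.48, FDR = 0.114). Without EC Control-AMI libraries 1 and 4 it was lost (-0.75), as was Adamts2 between EC and CM (1.37, FDR = 0.393). Fibroblast markers in those libraries are given beside the EC results, and their part was not tested.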

How the results depend on the processing

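Of 2292 refits of single genes, 2178 kept their direction and their side of the threshold, 79 lost a call, 27 gained one and 8 changed sign, none of a called gene. Of 607 recounts of called members, 548 stayed within 1.5 times the count first given. Both sets include many fits that left out a library of a group outside the comparison, so these shares alone are no measure of stability. Counts of called members that moved by more than 1.5 times, or to or from 0, were as follows. Those between EC and another population include Adamts15, which was below the filter within EC. Smaller moves are not listed in full. In FB, Control-AMI against Sham lost Adamts9 with no filter, the library number term and the 2-group fit. It gained Adamts5 with the S number term. In CM, Control-AMI against Sham went from 0 to 1 with DESeq2, the S number term and the 2-group fit, and EMPA-Pre-AMI against Sham from 0 to 2 with DESeq2 and 1 with no filter. In EC, Control-AMI against Sham went from 2 to 4 with no filter. EMPA-Pre-AMI against Control-AMI in EC went from 2 to 1 with the replicate block, the library number term and the 2-group fit, and to 0 with the S number term and without EC Control-AMI libraries 1 and 4. Without these 2 libraries the EC minus FB differences went from 4 to 0 for Control-AMI against Sham and from 2 to 0 for EMPA-Pre-AMI against Control-AMI, and EC minus CM from 1 to 0. With no filter, FB minus CM went from 1 to 0 for Control-AMI against Sham and EC minus FB from 2 to 1 for EMPA-Pre-AMI against Control-AMI. EC minus CM for EMPA-Pre-AMI against Control-AMI went from 0 to 1 with DESeq2. With the replicate number as a block, Sham EC against CM went from 5 to 3 and FB minus CM from 1 to 0.

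When single libraries were left out, counts ranged from 0 to 1 for EMPA-Pre-AMI against Control-AMI in CM, 0 to 3 for EMPA-Pre-AMI against Sham in CM, 1 to 2 for both EMPA-Pre-AMI comparisons in EC, 3 to 6 for Sham FB against CM, 2 to 4 for EC minus FB and 0 to 1 for FB minus CM after AMI, and 0 to 3 for EC minus FB and 0 to 1 for FB minus CM under EMPA. Smaller moves of the count are not in this list. In FB, Control-AMI against Sham lost Adamts9 without Sham library 2 or 3. In EC, Control-AMI against Sham gained Adamts5 without Control-AMI library 2 or 3, and Adamts9 without Control-AMI library 4. The log2 fold changes that changed sign were those of EMPA-Pre-AMI against Control-AMI. In EC, Adamts1 was -0.12 and Adamts9 -0.075 with the S number term, and -0.18 and -0.16 without Control-AMI libraries 1 and 4. Left-out ranges were -0.034 to 0.37 for Adamts1 and -0.47 to 0.10 for Adamts4 in EC, and -0.57 to 0.018 for Adamts1 and -0.75 to 0.19 for Adamts4 in FB. The cause of these changes was not tested, apart from the libraries left out.

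Whether replicate numbers pair the samples is not known, since only pairs with the same number were examined. Of these, 12 of 36 had a correlation of deviations above 0.1 (-0.11 to 0.48). The highest, 0.482, was between FB library 4 of Control-AMI and of EMPA-Pre-AMI, both with S numbers of 1 to 8. The block moved the count of calls only where stated above. The 62 pairs of libraries within a group differed by more than sampling noise (chi-square per gene 4.33 to 70.8), so each was counted as 1 sample. Low counts limit Adamts15 in EC and CM and Adamts4 in Sham.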
